A study of Homo sapiens with 8 samples.

Results

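The genes described here are 9 keratins of the suprabasal layers, the cells of a stratified epithelium that have left the basal layer. KRT4, KRT13, KRT76 and KRT78 were taken as the mucosal members, KRT1, KRT2 and KRT10 as the epidermal members, and KRT24 and KRT80 as further suprabasal keratins of neither class. Each was matched by its Ensembl identifier, without the version, to a row of the deposited table of raw counts. They are 9 of 63241 gene rows and 9 of the 55 genes named as keratins. Rows were matched by identifier only, but the members were chosen with earlier results of these data known.

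The libraries are labelled as HSC3, an established human line from an oral squamous cell carcinoma. By the labels, 4 libraries came from cells given an siRNA against COL1A1, the gene of the type I collagen alpha 1 chain, and 4 from cells given a non-targeting siRNA. Both groups received 100 pmol of siRNA with Lipofectamine 3000, a lipid transfection reagent, and were collected after 48 hours, so both carry the transfection. A cell line of this kind grows tumour cells alone, without the connective tissue, gland and muscle of the mouth. The labels do not say whether replicate libraries are separate cultures, and a p-value here measures the spread between these libraries and no more.

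Keratins form intermediate filaments as pairs of a type I and a type II chain. Basal cells of stratified epithelium make KRT5 with KRT14, and cells that move up and differentiate switch to other pairs. In non-keratinised lining mucosa of the mouth and oesophagus that pair is KRT4 with KRT13, and in epidermis it is KRT1 with KRT10, joined by KRT2 in the upper layers. KRT76 is a type II keratin of hard palate and gingiva.

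Of the members, 6 are type II genes on chromosome 12 and 3 are type I genes on chromosome 17. All lie on the minus strand, with coordinates from GENCODE 29 on GRCh38, the assembly also called hg38. The mucosal type II genes are KRT4 (ENSG00000170477, chr12:52806549-52814551), KRT76 (ENSG00000185069, chr12:52768155-52777345) and KRT78 (ENSG00000170423, chr12:52837804-52849092). KRT13 (ENSG00000171401, chr17:41500981-41505705) is the mucosal type I gene. The epidermal type II genes are KRT1 (ENSG00000167768, chr12:52674736-52680407) and KRT2 (ENSG00000172867, chr12:52644558-52652164). KRT10 (ENSG00000186395, chr17:40818117-40822595) is the epidermal type I gene. KRT80 (ENSG00000167767, chr12:52168996-52192000) is type II and KRT24 (ENSG00000167916, chr17:40697991-40703750) is type I.

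The promoters are shown because members of different classes, with different libraries at their peak, share a motif at nearly the same distance from the start. RefSeq (GRCh38.p14) promoter entries were matched for 5 of the 9 members, and KRT13, KRT78, KRT1 and KRT80 had no matched entry. Each run below is the 60 bases just before the RefSeq start, written 5′ to 3′ on the minus strand, with ATATAA in capitals. The RefSeq start can differ from the end of the GENCODE gene given above, and the KRT4 window lies inside the GENCODE gene. KRT4 is at chr12:52814117-52814176, KRT76 at chr12:52777346-52777405, KRT2 at chr12:52652212-52652271, KRT10 at chr17:40822615-40822674 and KRT24 at chr17:40703753-40703812.
KRT4: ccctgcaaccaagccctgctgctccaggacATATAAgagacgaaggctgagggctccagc
KRT76: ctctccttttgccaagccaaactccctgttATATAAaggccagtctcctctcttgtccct
KRT2: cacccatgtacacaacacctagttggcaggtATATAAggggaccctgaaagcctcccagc
KRT10: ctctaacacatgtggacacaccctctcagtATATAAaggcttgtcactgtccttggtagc
KRT24: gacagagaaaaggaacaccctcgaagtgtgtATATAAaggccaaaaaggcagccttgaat

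ATATAA, a form of the TATA box, began at position -30 in KRT4, KRT76 and KRT10 and at -29 in KRT2 and KRT24, counted back from the RefSeq start. It was searched on both strands after the sequences had been seen, and 5 of 5 member windows held it, against 2.33% of the same 60-base windows of 35116 promoters. TATAAA, which can overlap ATATAA, was in 3 of the 5 promoters within 250 bases, against 10.7% of all. CACCC, a short motif bound by Krüppel-like factors, was in 4 of 5, against 54.7%. GCCNNNGGC, the core bound by AP-2 factors, was in KRT4 alone of the 5, against 19.8%. TGANTCA, the AP-1 motif, was in 0 of 5, against 6.57%. These matches describe letters in these windows and nothing further.

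The share of counts in squamous genes differed widely between libraries. The 8 squamous markers (KRT5, KRT14 and KRT6A among them) together took 0.045% to 10.7% of the counts of a library, and all keratins took 0.137% to 21.2%. Skeletal muscle markers (21 of 22 matched) took 4.02% of counts in the library labelled knockdown 2, 5.06% in knockdown 4, 16.1% in control 1 and 15.8% in control 3, and at most 0.465% in the other 4. The 24 salivary gland markers took 13.2% in knockdown 2 and 19.4% in control 1, and at most 0.0145% in the other 6. These levels of muscle and gland genes go against a label of pure carcinoma cells, and libraries are named here only by the label they carry. The target gene, COL1A1, stood at 368, 123, 301 and 155 CPM in knockdown 1 to 4 and at 89.0, 8183, 476 and 689 CPM in control 1 to 4, so its lowest library is a control. Its log2 fold change was -2.97 (SE 1.30, edgeR, unadjusted p = 0.0484, adjusted p = 0.981). The 8 fibroblast markers, COL1A1 among them, took 1.89% of counts in control 2, where COL1A1 was highest, and at most 0.357% in the other libraries, and all 8 were fitted lower under the knockdown label. Total counts were 30684584 to 61795990 a library.

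**Figure D1:**
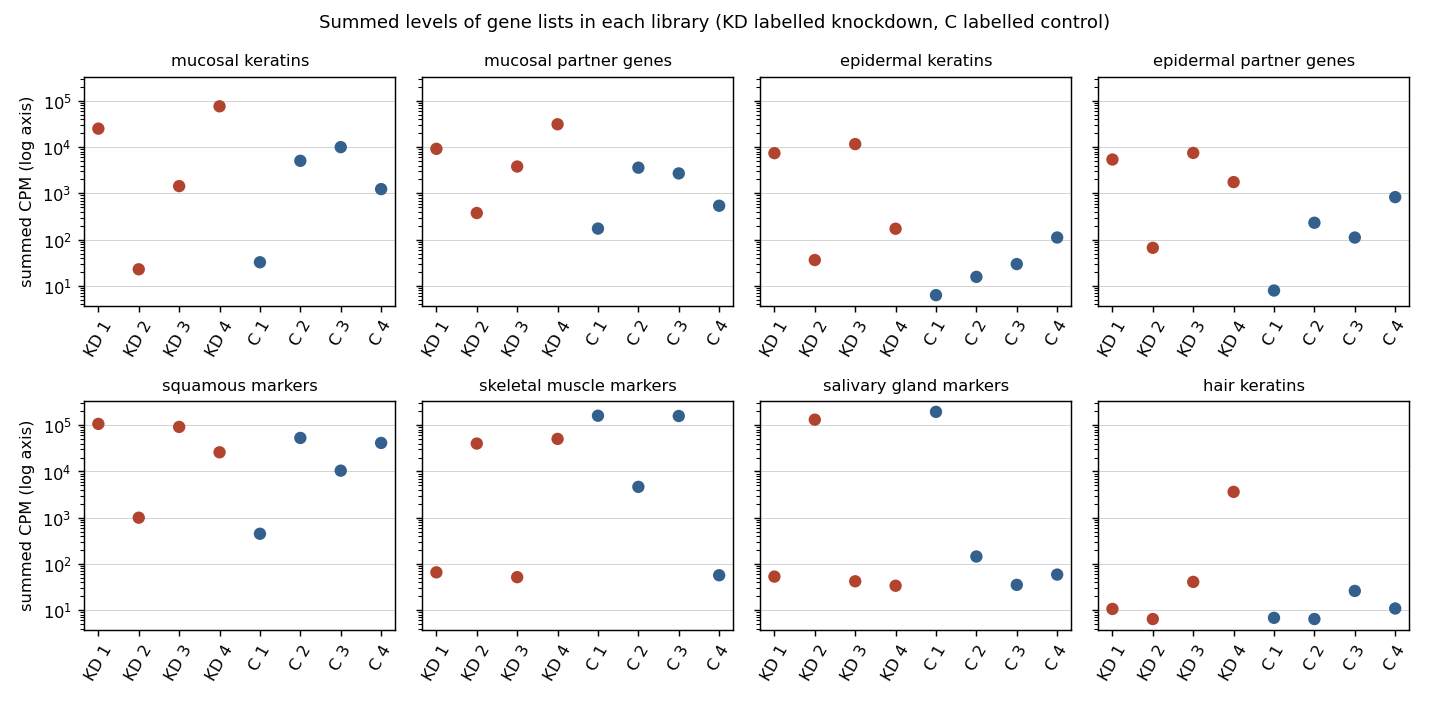
Summed CPM of 8 gene lists in each library (1 point per library, log axis): mucosal and epidermal keratins with their partner genes, squamous, muscle and gland markers, and hair keratins. Gland markers were high in the libraries labelled knockdown 2 and control 1, which held the fewest squamous marker counts.

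In RNA from bulk cells, fewer cells of a type and less RNA per cell cannot be told apart. Levels below are CPM, counts scaled to a common library total, and are compared between libraries for 1 gene at a time.

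The mucosal keratins were highest in the libraries labelled knockdown 4 and knockdown 1, except that KRT76 had knockdown 3 in second place. KRT4, the type II partner of KRT13, stood at 11999, 4.79, 285 and 45264 CPM in knockdown 1 to 4 and at 17.6, 289.6, 4730 and 405 CPM in control 1 to 4. The group means were 14388 ± 21329 CPM (SD, n = 4) for knockdown and 1360.3 ± 2252 CPM (SD, n = 4) for control. Knockdown 4 and 1 were the highest libraries and control 3 came next, while knockdown 2 was the lowest of all 8, so the groups overlapped. The fitted log2 fold change was 3.64 (SE 2.33, edgeR, unadjusted p = 0.154, adjusted p = 0.981). Without knockdown 4 it was 2.14 and without control 3 it was 6.03.

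KRT13, the type I chain of the mucosal pair, stood at 12808, 17.7, 1080.0 and 28768 CPM in knockdown 1 to 4 and at 14.5, 4744, 5252 and 830.3 CPM in control 1 to 4. Knockdown 4 and 1 were again highest, controls 2 and 3 lay above knockdown 3, and knockdown 2 and control 1 were both near the bottom. The fitted log2 fold change was 2.21 (SE 1.94, edgeR, unadjusted p = 0.284, adjusted p = 0.981), the smallest among the members tested. Without knockdown 4 it was 1.29.

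KRT76 stood at 4.83, 0.13, 15.8 and 322 CPM in knockdown 1 to 4 and at 0.0544, 0.324, 1.15 and 0.288 CPM in control 1 to 4. Of its CPM summed over the 8 libraries, 93.5% was in knockdown 4. Knockdown 2 lay inside the control range and the other 3 knockdown libraries lay above it. The fitted log2 fold change was 7.71 (SE 2.13, edgeR, unadjusted p = 0.00575, adjusted p = 0.981), and 4.52 without knockdown 4. KRT76 shares 3.19% of its 50-base windows with transcripts of KRT3, KRT6A, KRT6B, KRT6C and KRT7, so its counts are uncertain where those genes are abundant. KRT6A stood at 42475 CPM in knockdown 1 and 37562 CPM in knockdown 3, where KRT76 stood at 4.83 and 15.8 CPM.

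KRT78, a type II keratin of differentiated stratified epithelium, stood at 294, 0.261, 55.1 and 1953 CPM in knockdown 1 to 4. Its control levels were 0.217, 25.9, 15.7 and 1.81 CPM. Knockdown 4 was highest and knockdown 2 sat with control 1 at the lowest levels. The fitted log2 fold change was 5.89 (SE 2.20, edgeR, unadjusted p = 0.0259, adjusted p = 0.981), and 3.93 without knockdown 4.

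The epidermal keratins peaked in other libraries. KRT1, the first type II chain of epidermal differentiation, stood at 6424, 5.67, 3532 and 105 CPM in knockdown 1 to 4 and at 0.381, 1.75, 17.6 and 79.7 CPM in control 1 to 4. Knockdown 1 and 3 stood far above the other 6 libraries, and knockdown 2 lay below controls 3 and 4. The group means were 2516 ± 3078 CPM (SD, n = 4) and 24.9 ± 37.4 CPM (SD, n = 4), and the fitted log2 fold change was 7.09 (SE 2.48, edgeR, unadjusted p = 0.0189, adjusted p = 0.981). Without knockdown 1 it was 6.13 and without control 4 it was 9.13.

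KRT10, the type I partner of KRT1, stood at 972, 30.5, 7933 and 56.7 CPM in knockdown 1 to 4 and at 5.93, 13.8, 11.6 and 31.3 CPM in control 1 to 4. Knockdown 3 alone held 87.6% of its summed CPM, and knockdown 2 lay just under control 4, the only overlap between the groups. The group means were 2248 ± 3815 CPM (SD, n = 4) and 15.7 ± 10.96 CPM (SD, n = 4), and the fitted log2 fold change was 7.66 (SE 2.04, edgeR, unadjusted p = 0.00466, adjusted p = 0.981), and 4.82 without knockdown 3. The overlapping antisense gene KRT10-AS1 held 3.97 to 9.91 CPM, and without a stated strand setting its reads and those of KRT10 cannot be told apart.

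KRT2, the type II keratin of the upper epidermis, was counted at 0.615, 0, 157 and 10.7 CPM in knockdown 1 to 4 and at 0, 0.0971, 0.403 and 0.154 CPM in control 1 to 4. Knockdown 3 held 92.9% of its summed CPM. A count of 0 allows up to 3 counts, which is 0.0978 CPM in knockdown 2 and 0.0816 CPM in control 1. The fitted log2 fold change was 8.57 (SE 2.58, edgeR, unadjusted p = 0.00913, adjusted p = 0.981), and 4.65 without knockdown 3.

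KRT80, a type II keratin laid down near the desmosomes of differentiating cells, stood at 563, 18.4, 734 and 304 CPM in knockdown 1 to 4 and at 12.7, 44.3, 2.11 and 74.6 CPM in control 1 to 4. Knockdown 1, 3 and 4 lay above all 4 controls and knockdown 2 lay within them. The group means were 405 ± 313 CPM (SD, n = 4) and 33.4 ± 32.8 CPM (SD, n = 4), and the fitted log2 fold change was 3.95 (SE 1.32, edgeR, unadjusted p = 0.0154, adjusted p = 0.981). KRT80 had the narrowest span of the 8 keratins that passed the filter on low counts, with its highest CPM 348 times its lowest, against 16880 times for KRT1.

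KRT24, a type I keratin of suprabasal cells, was barely detected. It stood at 2.23, 0.0652, 5.27 and 0.0548 CPM in knockdown 1 to 4 and at 0, 0.0324, 0.248 and 0 CPM in control 1 to 4. More than 3 counts were found in only 3 libraries (knockdown 1 and 3 and control 3), and KRT24 did not pass the filter, so it has no edgeR value.

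**Figure D2:**
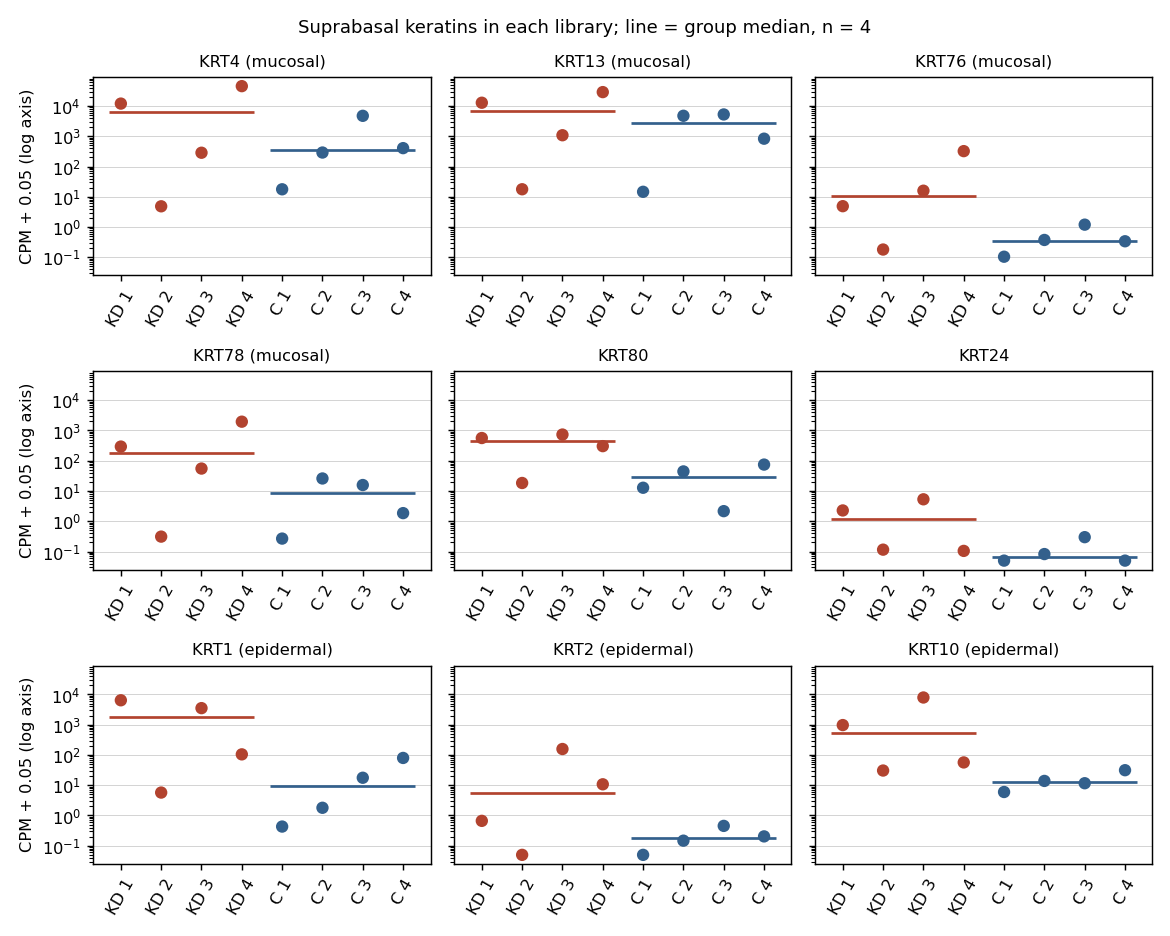
CPM of each of the 9 keratins in the 8 libraries, on a log axis after adding a small constant so that zeros can be drawn; each point is a library (KD labelled knockdown, C labelled control) and the line is the group median (n = 4). The mucosal keratins were highest in knockdown 4, KRT2, KRT10, KRT24 and KRT80 in knockdown 3, and KRT1 in knockdown 1.

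With edgeR, 0 of the 8 members that passed the filter were called at an adjusted p under 0.05, and so were 0 of 21192 genes (0%). At an unadjusted p under 0.05 stood 6 of the 8 members, all but KRT4 and KRT13, against 1013 genes or 4.78% of those tested. Fitted values were above 0 for 8 of 8 members, with a median log2 fold change of 6.49, against 46.8% of genes and a median of -0.05. The members varied together from library to library, so these counts are not 8 separate observations. Some marker lists of cell types had fitted values of 1 sign too, and edgeR called 0 of them: squamous markers were fitted higher for 8 of 8 (median 0.90), and skeletal muscle markers lower for 21 of 21 (median -1.94). Fibroblast markers were fitted lower for 8 of 8 (median -1.82, 4 with an unadjusted p under 0.05) and adipocyte markers for 4 of 4 (median -2.24). Their part in the keratin values was not tested. For 0 of the 9 members did the groups' CPM not overlap, against 2.35% of genes, and knockdown 2 lay inside or below the control range for each. The limma-voom fit called 0 members and 0 genes.

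DESeq2 called 3 members, KRT78 (adjusted p = 0.0387), KRT1 (adjusted p = 0.00554) and KRT10 (adjusted p = 3.489e-05), all higher in the libraries labelled knockdown, against 146 genes or 0.523%. It gave no adjusted p for KRT76 and KRT2, and KRT4, KRT13, KRT80 and KRT24 had adjusted p of 0.672, 0.978, 0.0882 and 0.133 with DESeq2. Without knockdown 3, DESeq2 gave no adjusted p to KRT76, KRT1, KRT10 and KRT24. It called 0 of the other 5 members there and 42 of 45707 genes fitted. The DESeq2 log2 fold change there was 6.81 for KRT1, against 7.08 with all libraries, and 4.82 for KRT10, against 7.67. Without knockdown 2, DESeq2 called 7 of 9 members and 385 of 45167 genes fitted. The genes fitted in these refits include those without an adjusted p. In the 4 libraries with at most 1% of counts in muscle and at most 1% in gland markers (knockdown 1 and 3, control 2 and 4), edgeR called 0 members with a smallest adjusted p among them of 0.173. DESeq2 called 8 of 9 members there, all but KRT13, against 996 genes or 4.39% of those with an adjusted p. These libraries still differed in squamous markers, with 10.7% and 9.19% of counts in knockdown 1 and 3. The shares were 5.31% and 4.14% in control 2 and 4, and their part in these calls was not tested. In those 4 libraries the edgeR log2 fold change was 4.50 for KRT4, 1.72 for KRT13, 7.34 for KRT1 and 8.15 for KRT10. The part of the muscle and gland content in the other values was not tested.

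**Figure D3:**
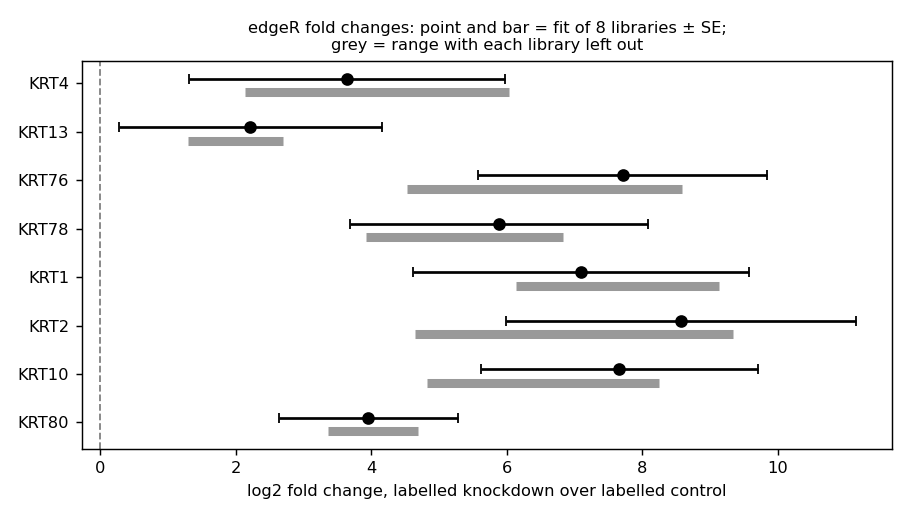
Fitted edgeR log2 fold change of each tested keratin (point) with its SE (bar), libraries labelled knockdown against control, beside the range over leaving out each library in turn. Every value lies above 0, from 2.21 for KRT13 to 8.57 for KRT2, and 0 of the 8 had an adjusted p under 0.05.

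The balance between the classes differed widely within a label. Summed CPM of the 4 mucosal keratins was 25106, 22.8, 1436 and 76307 in knockdown 1 to 4 and 32.4, 5059.7, 9998 and 1237 in control 1 to 4. Summed CPM of the 3 epidermal keratins was 7397, 36.2, 11622 and 172 in knockdown 1 to 4 and 6.31, 15.7, 29.6 and 111 in control 1 to 4. Between the classes, amounts were compared per exon length, as TPM, which is counts divided by exon length and scaled to a common total. Mucosal exceeded epidermal summed TPM in 6 of 8 libraries, and the epidermal sum was the larger in knockdown 3 (10.8 times) and knockdown 2 (2.16 times). Knockdown 4 stood at the other end, with 334 times as much mucosal as epidermal keratin on TPM, above control 2 (239.9 times) and control 3 (256 times).

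To set the libraries against each other, the log2 ratio of the mucosal to the epidermal CPM sum was taken, with 0.5 CPM added to each. It was 1.76, -0.65, -3.02 and 8.79 in knockdown 1 to 4 and 2.27, 8.29, 8.37 and 3.47 in control 1 to 4. Its mean was 1.72 ± 5.10 (SD, n = 4) under the knockdown label and 5.60 ± 3.19 (SD, n = 4) under the control label. The difference of -3.88 is smaller than the pooled SD of 4.25 and the ranges overlap. With TPM in place of CPM the difference was -3.86. On CPM it was -6.24 without knockdown 4, -2.30 without knockdown 3 and -6.51 in the 4 libraries poor in muscle and gland markers. No test was made of this score, since its members were chosen.

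**Figure D4:**
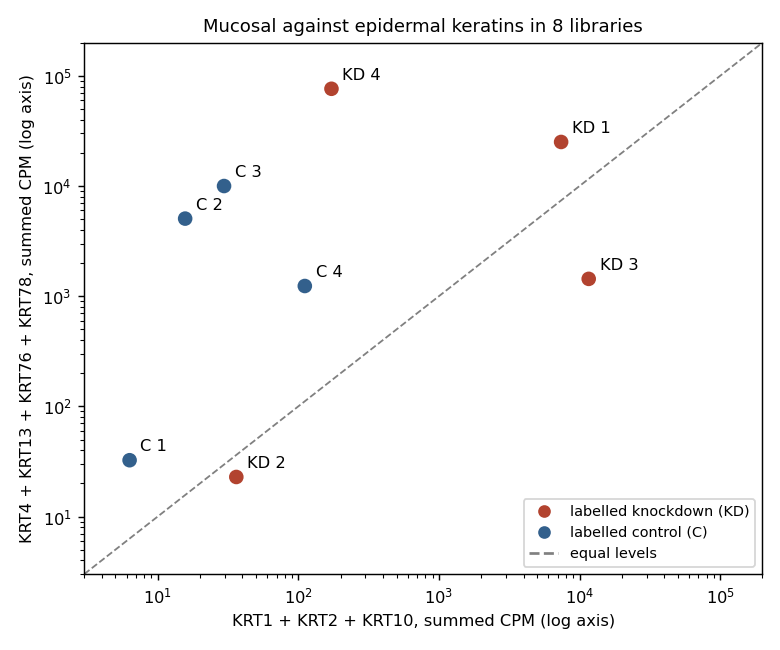
Summed CPM of the mucosal keratins against that of the epidermal keratins, both on log axes, 1 point per library with its label and replicate number, and a dashed line at equal levels. Knockdown 3 and 2 lie on the epidermal side of equality, and knockdown 4 and control 2 and 3 lie farthest on the mucosal side.

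Each mucosal keratin had its highest CPM in knockdown 4, as did 7.26% of the 16634 genes with a mean of at least 1 CPM. KRT2, KRT10 and KRT80 peaked in knockdown 3 (5.6% of genes) and KRT1 in knockdown 1 (5.54% of genes). On the per-length scale KRT80 was higher in knockdown 1 (333 TPM) than in knockdown 3 (238 TPM), so its peak library depends on the scale. The 9 keratins together took 7.68% of all counts in knockdown 4, where they were 71.8% of keratin CPM, and 0.00515% in control 1. In control 3 they were 48.9% of keratin CPM although only 1.00% of counts.

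Levels of different genes were compared per exon length, as TPM. By median over the 8 libraries the order was KRT13 (2661 TPM), KRT4 (291.8 TPM), KRT1 (58.2 TPM), KRT80 (38.1 TPM), KRT10 (33.9 TPM), KRT78 (20.2 TPM), KRT76 (1.04 TPM), KRT2 (0.390 TPM) and KRT24 (0.0709 TPM). Each was exceeded by its predecessor in 6, 6, 4, 4, 6, 8, 7 and 5 of 8 libraries along this order. KRT78 stood above KRT76 in every library, while KRT1, KRT80 and KRT10 could not be ordered beyond their spread. KRT13 was the most abundant member in knockdown 1 and control 2, 3 and 4, KRT4 in knockdown 4 and control 1, and KRT10 in knockdown 2 and 3.

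Within the mucosal pair, the KRT4 to KRT13 ratio of TPM was 0.824, 0.239, 0.232 and 1.38 in knockdown 1 to 4 and 1.07, 0.0537, 0.792 and 0.429 in control 1 to 4. The chains were thus near parity in knockdown 1 and 4 and control 1 and 3, and KRT13 was 18.6 times the level of KRT4 in control 2. KRT13 shares 13.2% of its 50-base windows with other annotated transcripts (KRT15 and an antisense gene that held 0 counts in every library), which could move reads between them.

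Within the epidermal pair, the KRT1 to KRT10 ratio of TPM was 5.69, 0.160, 0.384 and 1.59 in knockdown 1 to 4 and 0.0553, 0.109, 1.31 and 2.19 in control 1 to 4. KRT1 led in knockdown 1 and KRT10 led in knockdown 3, so the 2 libraries richest in epidermal keratins differed in which chain was in excess. KRT76 exceeded KRT10 only in knockdown 4, with a ratio of 4.82, and the ratio was at most 0.0839 elsewhere. Over the members, type II over type I TPM was 1.32, 0.397, 0.432 and 1.47 in knockdown 1 to 4 and 1.09, 0.0651, 0.797 and 0.574 in control 1 to 4.

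The suprabasal keratins were also set against the basal keratin KRT5 of the same library. Whether KRT5 follows the squamous RNA of a library was not tested. KRT5 stood at 9350 ± 8324 CPM (SD, n = 4) under knockdown and 9231 ± 7671 CPM (SD, n = 4) under control. Its fitted log2 fold change was 0.41 (SE 1.55, edgeR, adjusted p = 0.997), and that of its partner KRT14 was 2.28 (SE 1.68, edgeR, adjusted p = 0.981).

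Relative to KRT5, on TPM, KRT4 was 0.786, 0.0227, 0.0321 and 10.0 in knockdown 1 to 4 and 0.210, 0.0223, 1.05 and 0.0370 in control 1 to 4. KRT13 relative to KRT5 was 0.955, 0.0949, 0.138 and 7.24 in knockdown 1 to 4 and 0.197, 0.416, 1.33 and 0.0862 in control 1 to 4. Knockdown 4 was the only library where KRT4 and KRT13 were several times KRT5, and control 3 was the only other one where both exceeded it.

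KRT1 relative to KRT5 was 0.561, 0.0357, 0.530 and 0.0309 in knockdown 1 to 4 and 0.00603, 0.000179, 0.00521 and 0.00969 in control 1 to 4. KRT10 relative to KRT5 was 0.0985, 0.223, 1.38 and 0.0194 in knockdown 1 to 4 and 0.109, 0.00165, 0.00398 and 0.00442 in control 1 to 4. On this scale KRT1 stood above all controls in each of the 4 libraries labelled knockdown, knockdown 2 included. No other member did, and for KRT10 control 1 lay above knockdown 1 and 4. The separation of KRT1 depends on the divisor. Relative to KRT14, KRT1 was lower in knockdown 2 (4.32 against 442 TPM) than in control 3 (27.0 against 1868 TPM). It was also lower there than in control 4 (89.3 against 5212 TPM). The share of all genes that separate on the KRT5 scale was not computed. KRT5 was lowest in control 1 (109 CPM) and next lowest in knockdown 2 (274 CPM). A low KRT5 level raises any ratio to it, in both of these libraries. The KRT1 ratio of knockdown 2 rests on 174 KRT1 counts.

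**Figure D5:**
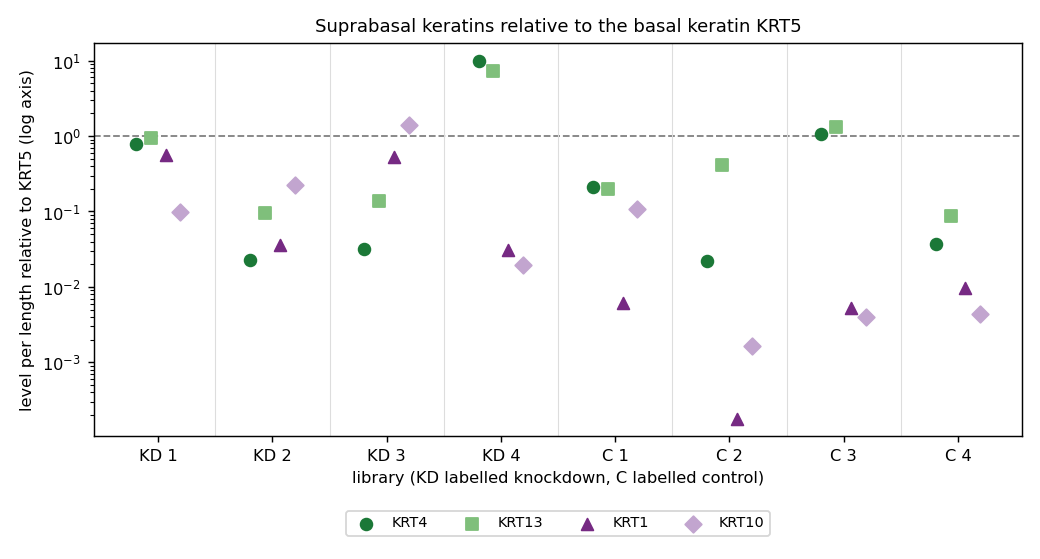
Length-scaled level of KRT4, KRT13, KRT1 and KRT10 divided by that of KRT5 in the same library, on a log axis, 1 point per gene and library; the dashed line marks equal levels. KRT4 and KRT13 were highest in knockdown 4 and KRT10 in knockdown 3, and KRT1 was about equal in knockdown 1 (0.561) and 3 (0.530).

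Members of a class followed each other across libraries. Spearman's rho over the 8 libraries was 0.714 to 0.952 for the 6 pairs within the mucosal class, 0.778 to 0.905 for the 3 pairs within the epidermal class, and 0.333 to 0.946 for the 12 pairs between classes. KRT4 with KRT13 and KRT1 with KRT10 both reached 0.905, and KRT10 with KRT80 reached 0.952. The highest pair between classes was KRT76 with KRT2, at 0.946. These values describe 8 libraries that differ in squamous content and depth, which all keratins share.

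Ranked by the same measure among 9828 genes, those most like KRT4 over the 8 libraries were E2F2, AHNAK, GBP6 and TET2 (rho 0.976) and EXPH5 (0.952). Those most like KRT13 were ANXA1 (rho 1) and ECM1, CLCA4, SLC7A1 and KCTD20 (0.976). For KRT1 they were IDE, GAB1 and CKMT1B (0.976) and CD177 and NSG1 (0.952). For KRT10 they were NOD2, SPTLC3, KLK14, CTNNBIP1 and TENT5B (0.976). Only 5 genes were kept for each keratin, with ties in rho broken by Pearson correlation of log2 CPM. Genes with the same rho as the last one named may therefore be left out. These are the highest of 9828 values over 8 libraries that differ in squamous, muscle and gland content, and no p was computed.

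The other genes of the 2 differentiation programmes were read from lists. Of 16 mucosal partner genes (cornified envelope precursors, envelope linkers and surface proteins of lining mucosa), all 16 were tested, edgeR called 0, 4 had an unadjusted p under 0.05, and 16 were fitted higher, with a median log2 fold change of 2.89. Over all genes, 4.78% had such a p and 46.8% were fitted higher. Their summed CPM was 9179, 376, 3808 and 31205 in knockdown 1 to 4 and 173, 3596, 2702 and 540.4 in control 1 to 4. SPRR3, a small proline-rich envelope precursor, stood at 2712, 0.717, 405 and 10981 CPM in knockdown 1 to 4 and at 1.58, 429, 420.0 and 10.3 CPM in control 1 to 4, with a log2 fold change of 4.24 (SE 2.27, edgeR, adjusted p = 0.981). RHCG, an ammonium transporter, had a log2 fold change of 2.26 (SE 1.53, edgeR, adjusted p = 0.981). Of the 16, 15 peaked in knockdown 4, the library where the 4 mucosal keratins peaked.

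Of 16 epidermal partner genes (filaggrin family, late envelope proteins and desmosomal cadherins of epidermis), 11 passed the filter. EdgeR called 0 of them, 6 had an unadjusted p under 0.05 and 11 were fitted higher, with a median log2 fold change of 5.13, beside the same shares of all genes (4.78% and 46.8%). Their summed CPM was 5396, 66.6, 7496 and 1754 in knockdown 1 to 4 and 7.94, 232, 111 and 830.1 in control 1 to 4. DSG1, the desmosomal cadherin of upper epidermal layers, stood at 2962, 7.95, 4435 and 1152 CPM in knockdown 1 to 4 and at 0.870, 121, 86.9 and 433 CPM in control 1 to 4, with a log2 fold change of 4.17 (SE 1.87, edgeR, adjusted p = 0.981). KRTDAP, a secreted protein of suprabasal keratinocytes, had a log2 fold change of 5.41 (SE 2.45, edgeR, adjusted p = 0.981). DESeq2 called CNFN and CRCT1 among the mucosal partners and FLG2, CDSN, DSC1 and KPRP among the epidermal ones, against 0.523% of genes with all libraries. Its gene count was 42 to 385 when single libraries were left out.

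EdgeR called 0 genes of the other keratin lists and 0 of the regulators. The 6 stress keratins had a median log2 fold change of 2.79, with KRT6A at 2.13 (SE 2.14) and KRT16 at 2.19 (SE 2.21). The 8 basal layer genes had a median of 0.23 with 5 fitted higher, and the 4 tested simple epithelial keratins a median of 0.13, with KRT19 at -0.13 and KRT7 at 0.27. The 4 tested minor suprabasal keratins had a median of 2.44, with KRT23 at 1.85 and KRT3, the corneal type II keratin, at 2.44. Of 20 regulators of squamous differentiation 15 were fitted higher, with a median of 0.81, the Notch ligand JAG1 at -0.52 and the receptor NOTCH2 at 0.45.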

How the data were processed

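The authors deposited 1 table of raw read counts, whole numbers with no scaling. STAR, Subread, featureCounts and hg38 are named, without roles, per the submitters' processing notes. Program versions, the annotation and the strandedness of counting: not given in the sources used here. Per the labels the RNA is polyA, although a removal of ribosomal RNA is part of the protocol in them. The treated columns are headed as a knockout and titled as a knockdown, and were matched by group and number. Symbols were matched to 62666 of 63241 rows by Ensembl identifier. TPM used GENCODE 29 exon-union lengths, known for 58228 rows with 99.7% to 99.8% of counts.

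EdgeR 4.0.16 (quasi-likelihood, TMM, filterByExpr, Benjamini-Hochberg over 21192 genes) compared the labels in R 4.3.3. It was also run on simulated counts that varied far less between libraries than these, so that run does not speak to its power here. DESeq2 1.42.0 and limma-voom (limma 3.58.1) were alternatives, with other scalings, other filters, a replicate block and leaving out each library. CPM are of column totals. Genes were named as members, as the called or else the 2 most abundant of each list, and as the 5 most alike for 4 keratins. Partner genes called by DESeq2 were named after their values were seen. The members and lists were chosen with earlier results of these data known.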

Additional observations from a re-analysis of the deposited data

Results flagged for a closer look

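Within a group of 4 libraries, 6 of 24 keratin values stood apart, with the gap to the next library too large a part of the group's range by Dixon's criterion. Chance gives about 1 in 20 such cases for roughly normal values. These are CPM that span orders of magnitude, where a single top value fills most of the range, and the keratins vary together, so that rate is no yardstick here. Among libraries labelled knockdown, KRT76 was 322.3 CPM in knockdown 4 with the next at 15.8 CPM, and KRT78 was 1953 CPM in knockdown 4 with the next at 293.9 CPM. In knockdown 3, KRT10 was 7933 CPM with the next at 972.5 CPM, and KRT2 was 157.4 CPM with the next at 10.69 CPM. Among libraries labelled control, KRT4 was 4730 CPM in control 3 with the next at 404.6 CPM. KRT24 was 0.2481 CPM in control 3, from 8 counts, with the next at 0.03236 CPM.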

How the results depend on the processing

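No keratin changed direction under any alternative run. EdgeR called 0 genes and 0 members with RLE factors, library totals, other filters, or muscle and gland marker counts left out, as did limma-voom, whose log2 fold changes were smaller (KRT2 4.31, KRT10 4.82, KRT4 1.70). With the replicate block it called 0 genes and 0 members (KRT4 1.74, KRT10 4.62). Deviations of same-numbered libraries from their group means correlated at -0.656, -0.479, -0.372 and -0.399. These values gave no sign of pairing but cannot exclude it, since muscle and gland content differs between the libraries. Leaving out each library gave 0 to 1 genes and 0 members (1 gene without knockdown 2). DESeq2 called 146 genes and 3 members. Added after seeing the data, DESeq2 called 66, 385, 42 and 94 genes without knockdown 1 to 4 and 344, 152, 154 and 152 without control 1 to 4, with 0 to 7 members, and on the 4 libraries poor in muscle and gland markers 996 genes and 8 members. The 8 refits without 1 library each held 45167 to 45707 genes, those without an adjusted p included. KRT1 and KRT10 were called in 6 of those 8 refits and had no adjusted p in the other 2 (log2 fold change 6.14 and 7.94 without knockdown 1, 6.81 and 4.82 without knockdown 3). The cause was not tested. Leaving out each library moved the mucosal to epidermal difference between -6.24 and -2.30, and class means of log2 values gave -1.89. Coding length left 7 of 9 keratins at the same place in the order. Keratins under 1 CPM rest on 0 to 37 counts, where counting error alone is wide.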

Other observations

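Of the 8 hair keratins with a mean of at least 1 CPM, 6 peaked in knockdown 4, as did 7.26% of genes, while KRT86 peaked in control 2 and KRT32 in control 3. KRT84, a type II keratin of hair and of the tongue's filiform papillae, stood at 1850.1 CPM in knockdown 4, 33.9 CPM in knockdown 3 and at most 0.282 CPM in the other 6 libraries. KRT36, a type I hair keratin, stood at 1637 CPM in knockdown 4 and at most 2.14 CPM elsewhere. Neither passed the filter on low counts, so neither has an edgeR value. CRNN, an envelope protein of lining mucosa chosen here after its values were seen, stood at 2931 CPM in knockdown 4, 587 CPM in knockdown 1 and 0.154 to 109.6 CPM in the other libraries.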
